A study of Mus musculus with 7 samples.

Results

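Wnt ligands, their receptors and the proteins that tune them were examined in endpoint tumors of a mouse glioma model. The members were chosen by gene symbol alone, as every entry of the table of normalized counts that names a Wnt ligand, a Frizzled receptor, Lrp5 or Lrp6, a secreted frizzled-related protein, Frzb, Wif1, a Dickkopf protein, Notum, an R-spondin, Lgr4, Lgr5 or Lgr6, Axin1 or Axin2, Lef1 or Tcf7. They were 50 of the 19257 genes in the table, with 17 ligands, 12 receptors, 10 secreted inhibitors, 7 genes of the R-spondin axis and 4 scaffold or nuclear genes. Wnt3a, Wnt8a and Dkk4 were not analysed here.

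Tumors of the 3xCR group were induced by in utero electroporation of progenitors along the lateral ventricles with a construct that carried Cas9 and guides whose targets included Trp53 and Nf1, together with a piggyBac system that carried a GFP reporter. GPC6 tumors received the same construct, and the piggyBac system in addition drove GPC6, a cell-surface glypican. Mice were on CD-1 and C57BL/6 backgrounds and of both sexes, and tumor tissue was taken under fluorescence at the endpoint. The sex, background and age behind each library are not given in the sources used here. Bulk RNA-Seq covered 3 tumors from 3xCR, numbered 2, 3 and 4, and 4 from GPC6, numbered 1 to 4, described as biological replicates, and no tumor-free brain was among them. Bulk tissue mixes tumor cells with neighboring neurons, glia, vessels and immune cells, so fewer cells of a type and less RNA per cell cannot be told apart.

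Wnt ligands are secreted, lipid-modified glycoproteins that bind Frizzled receptors and, in the canonical branch, the co-receptors Lrp5 and Lrp6. Binding disables a destruction complex built on Axin and Apc, so that beta-catenin accumulates and acts in the nucleus with Tcf and Lef proteins on genes such as Axin2, which feeds back on the pathway. In the brain, Wnt signals pattern the forebrain, guide synapse formation and build the blood-brain barrier, for which Wnt7a and Wnt7b of neural cells act on endothelial cells. Glypicans carry heparan sulfate chains that can hold Wnt ligands at the cell surface.

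The libraries held 7197692 to 18879762 reads on genes, and the limit set by 0 reads (3 reads) was 1.64 to 4.64 normalized counts per library, which covers counting error only. Gpc6 itself had 216.5, 226 and 125.7 normalized counts in the 3xCR tumors and 675, 263, 3434 and 5084 in the GPC6 tumors, each in the order of their numbers, so that replicate 2 of the GPC6 label was close to the 3xCR tumors. Of 15 lists of cell type markers, 6 had their highest summed level in GPC6 replicate 1, among them neurons and choroid plexus, and 5 in 3xCR replicate 4, among them T cells and fibroblasts. GPC6 replicate 1 had 447 summed normalized counts of 5 markers of dividing cells, against 3503 to 9871 in the other libraries. The samples are labelled as neural cells of the brain, and all 6 neuronal, 5 astrocyte and 5 oligodendrocyte precursor markers were detected in every library.

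Between GPC6 and 3xCR tumors, none of the Wnt genes passed the adjusted test in limma or edgeR. None passed in DESeq2 either, which gave some of them, Wnt9b and Tcf7 included, no adjusted p. With library weights 3 (Rspo2, Wif1 and Wnt9b) passed, as did 1962 of all genes tested. Of the 50 members, 43 had a mean normalized count of at least 10 and entered the fit across 14782 genes (limma on log2(normalized count + 1), two-sided, Benjamini-Hochberg adjustment). The filter used the mean over all libraries, and 6 members reached it in 1 group only, Wnt9b, Wif1, Notum and Rspo2 in GPC6 and Wnt6 and Lgr6 in 3xCR, so their group difference is tied to their entry and their tests support nothing. In limma 0 of the 43 members and 0% of all genes tested had an adjusted p under 0.05, with 0.730 as the lowest. Gpc6 itself was not called either (log2 fold change 2.85, SE 0.98, limma adjusted p = 0.730), though DESeq2 called it (adjusted p = 0.0280). A lack of calls in limma thus does not show that a member was unchanged. Before adjustment, p was under 0.05 for 1 member of 43 (2.33%), Wnt9b, 1 of those 6, where 4.66% of all genes tested were called. Higher in GPC6 were 1 member and 2.74% of all genes tested (405), and lower 0 members and 1.92% (284). That split depended on the scaling, with 327 higher and 388 lower after scaling to an equal upper quartile and 485 and 228 after scaling to an equal total. By edgeR's quasi-likelihood test and by DESeq2 0 members passed adjustment. Each called 2 (4.65%) before adjustment, Wnt9b with Wif1 in edgeR and Wnt9b with Tcf7 in DESeq2, against 6.70% and 12.1% of all genes tested. DESeq2 gave no adjusted p to Wnt9b and Tcf7, so neither could pass there. The same held for Dkk2, Lef1, Lgr4, Rspo1, Rspo2, Wif1 and Wnt6 among the named members.

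The groups did not overlap in 2 members (4.65%), Wnt9b higher and Axin1 lower in GPC6, against 6.32% of all genes tested (2.80% higher and 3.52% lower). The median log2 fold change was 0.028 over the 43 members and -0.019 over all genes tested, with 22 members above 0 and 21 below. These counts moved with single libraries, as the members at an unadjusted p under 0.05 were 2 without 3xCR replicate 2, against 7.67% of all genes tested, and 3 without GPC6 replicate 2, against 9.46%. Members without overlap were 4 without 3xCR replicate 2, 6 without 3xCR replicate 3 and 6 without GPC6 replicate 2, where 20.9%, 10.9% and 16.1% of all genes tested did not overlap. The median was 0.27 without GPC6 replicate 2. The median SD within groups was 0.83 on the log2 scale over the members and 0.50 over all genes tested.

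**Figure D1:**
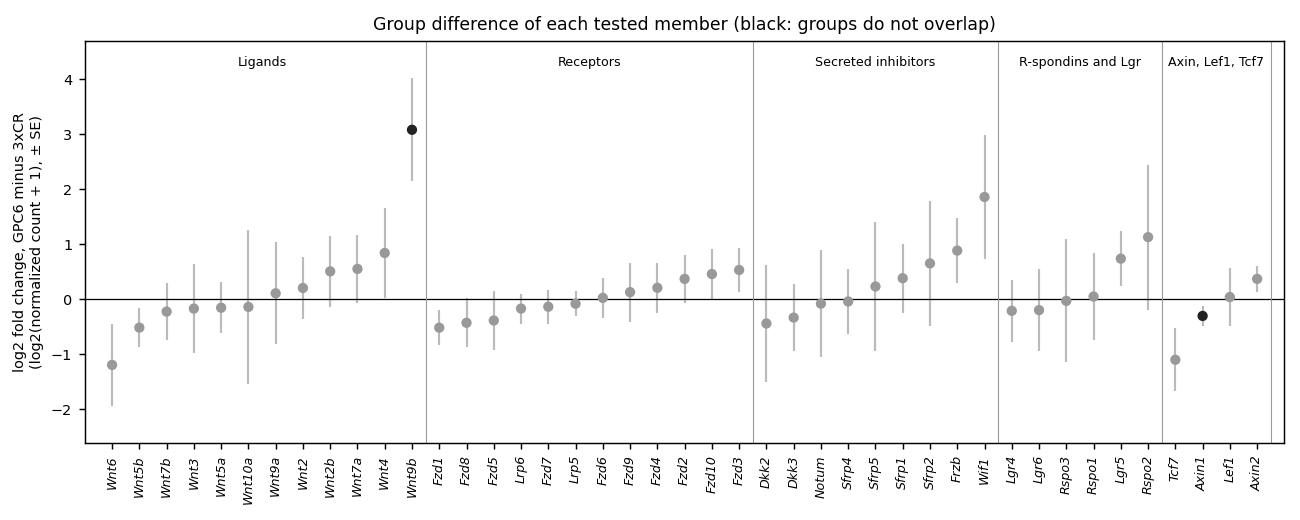
Log2 fold change of each of the 43 tested members between GPC6 and 3xCR tumors on the log2(normalized count + 1) scale, with bars of 1 standard error (SE) from limma, ordered within each role. The groups of Wnt9b (3.08) and Axin1 (-0.30), in black, did not overlap, and the other points lie between -1.19 (Wnt6) and 1.86 (Wif1).

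Among the ligands, Wnt7b and Wnt7a made up most of the transcripts in 5 of the 7 libraries. Levels of different genes were compared per kilobase of exon, since the counts carry no correction for length. Wnt7b averaged 103.9 normalized counts per kilobase over the 7 libraries and Wnt7a 70.3, followed by Wnt5b at 31.5 and Wnt5a at 22.9. Both Wnt5 ligands are best known for signaling without beta-catenin. The pair of Wnt7 ligands held 69.6%, 61.9% and 35.4% of the summed ligand level per kilobase in the 3xCR tumors by number, and 37.2%, 73.8%, 60.5% and 53.8% in GPC6 replicates 1 to 4. The groups overlapped, and the lowest shares were those of 3xCR replicate 4 and GPC6 replicate 1.

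**Figure D2:**
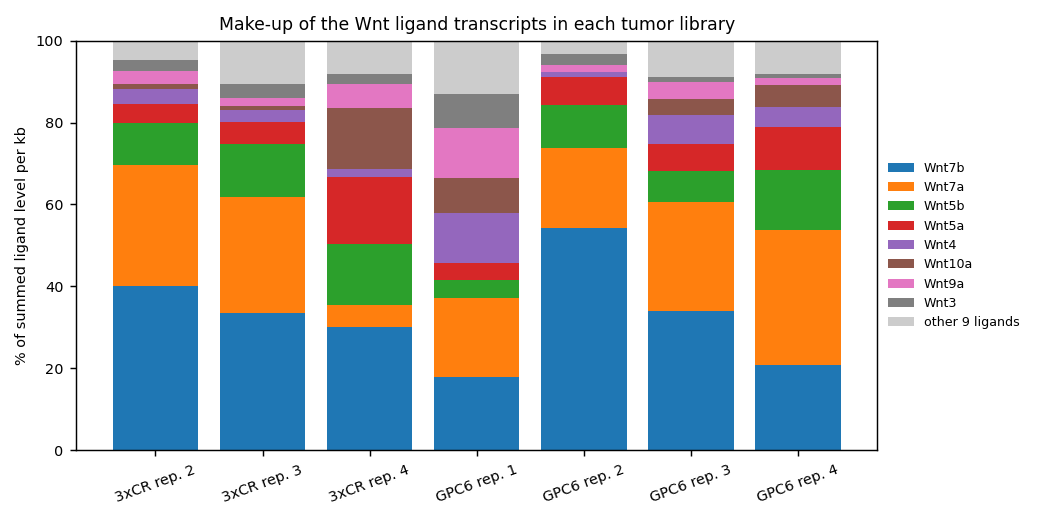
Share of each Wnt ligand in the summed ligand level per kilobase of exon (y axis, percent) in each of the 7 libraries. Wnt7b and Wnt7a fill 35.4% to 73.8% of each bar, and the bars of 3xCR replicate 4 and GPC6 replicate 1 hold more of other ligands.

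Wnt7b lies on chromosome 15, at 85535437 to 85582473 of GRCm38. The 3xCR tumors (replicates 2, 3, 4) gave 708, 414 and 425 normalized counts, and the GPC6 tumors (replicates 1 to 4) 306, 848, 670 and 193. Both the highest and the lowest library belonged to GPC6, and the means of 516 ± 166 (SD, n = 3) and 504 ± 306 (SD, n = 4) did not differ beyond this spread (log2 fold change -0.22, standard error (SE) 0.52, limma adjusted p = 0.907). Wnt7a had 338, 227 and 49.7 normalized counts in the 3xCR libraries, and 213, 197, 336 and 200.6 in GPC6. The 3xCR group thus held both ends of its range.

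Wnt9b, a ligand known from kidney and facial development, was the member with the smallest p. It lies on chromosome 11 (103727364 to 103749821 of GRCm38, minus strand). In 3xCR replicates 2, 3 and 4 it had 2.74, 1.86 and 0 normalized counts, which were 5, 2 and 0 reads. In GPC6 replicates 1 to 4 it had 13.9, 6.92, 65.6 and 14.4 normalized counts, or 9, 7, 74 and 14 reads. The lowest GPC6 tumor exceeded the highest 3xCR tumor, and GPC6 replicate 3, the highest, was 4.56 times the next. The means were 1.53 ± 1.40 (SD, n = 3) and 25.2 ± 27.2 (SD, n = 4), with the 3xCR mean under the limit set by 0 reads, so that the fitted fold depends on the pseudocount. Its log2 fold change was 3.08 (SE 0.93, limma unadjusted p = 0.0112, adjusted p = 0.730), in a gene that passed the filter through the GPC6 tumors alone. At 3.34 normalized counts per kilobase on average, it was 1 of the rarer ligands, and at most 3.62% of the summed ligand level per kilobase in a library.

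Several rarer ligands were highest in GPC6 replicate 1. Wnt4 had 176 normalized counts there, with 15.8 to 118 in GPC6 replicates 2 to 4 and 22.1 to 53.2 in 3xCR. For Wnt9a the value was 142, against 10.3 to 53.2 and 14.9 to 56.6. For Wnt3, which acts through beta-catenin, it was 89.6, against 6.17 to 26.7 and 22.1 to 28.5. Wnt2 and Wnt2b were highest there as well, at 29.4 and 37.1. The same library had the highest summed level of the 6 neuronal markers, 44567 normalized counts, with 5349 to 20911 in GPC6 replicates 2 to 4 and 4594 to 7056 in 3xCR, and none of these markers was at 0 in a library. It also held the highest sum of the 7 choroid plexus markers, 12629, of which Folr1 and Otx2 were at 0 in a library. Ttr alone gave 11813 of that sum. Kl, Folr1, Clic6, Kcnj13 and Otx2 were highest in GPC6 replicate 1 as well, but Aqp1 was 44.8 there and 1689 in 3xCR replicate 4. The part of neurons and choroid plexus in the ligand levels was not tested.

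A second set was highest in 3xCR replicate 4. Wnt5a had 371.6 normalized counts there and 105 to 204 in the other 6 libraries, Wnt10a had 106.4, and Wnt5b had 114.6. For Wnt10a the lowest library was GPC6 replicate 2 with 0.99 normalized counts, or 1 read, and the values between ran from 6.51 to 74.2. The 5 markers of fibroblasts, none at 0 in a library, summed to 30044 normalized counts in 3xCR replicate 4 and to 3468 to 19723 in the others. Among them, Pdgfra also marks oligodendrocyte precursors and was lowest in 3xCR replicate 4 (2309, against 3136 to 17225), and the other 4 summed to 27734 there and to 305 to 2498 elsewhere. The 5 mural markers summed to 2290 there and to 479 to 1053 elsewhere, but did not move together. In 3xCR replicate 4, Acta2 (1128) and Pdgfrb (971) were at their highest, while Rgs5 (58.0) was at its lowest. Abcc9 (55.2) and Kcnj8 (77.3) lay within the range of the other libraries. The part of fibroblasts and mural cells in the ligand levels was not tested. Wnt6 had 12.1, 33.5 and 18.0 normalized counts in 3xCR and 20.1, 2.96, 11.5 and 5.14 in GPC6, the lowest log2 fold change among ligands tested (-1.19, SE 0.75, limma adjusted p = 0.730). Its groups overlapped through GPC6 replicate 1, and without that library the log2 fold change was -1.60 (limma unadjusted p = 0.0571). Wnt6 passed the filter through the 3xCR tumors alone, so these p-values support nothing.

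Below the mean of 10 normalized counts were Wnt1, Wnt8b, Wnt10b, Wnt11 and Wnt16. Each had between 0 and 13 reads in a library. Wnt11 reached its 13 reads in 3xCR replicate 4 and Wnt10b its highest count, 9 reads, in GPC6 replicate 1. A group difference in these ligands was not detectable at this depth.

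**Figure D3:**
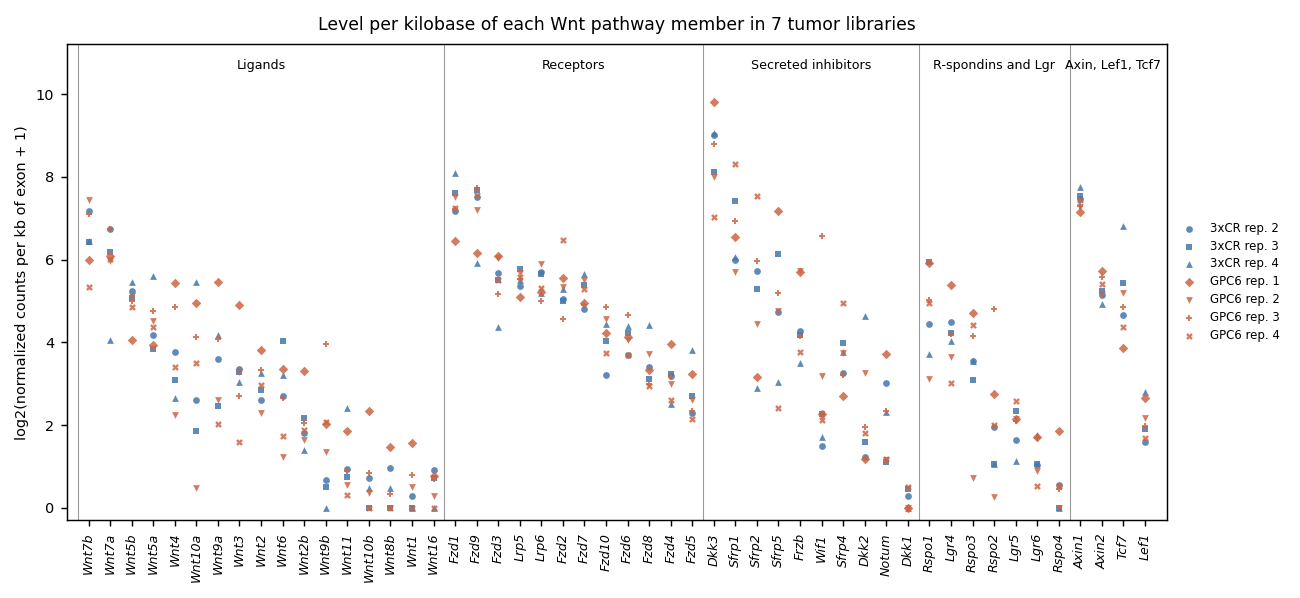
Level of each of the 50 members in each library, as log2(normalized counts per kilobase of exon + 1), ordered by role and by mean, with 3xCR libraries in blue and GPC6 libraries in orange. Dkk3, Axin1, Fzd1, Fzd9 and Sfrp1 have the highest mean levels, and blue and orange points are mixed in most columns, with Wnt9b and Axin1 apart.

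Receptors varied least of the large classes between tumors. All 12 passed the filter, and the highest library was 1.61 to 3.89 times the lowest, with a median of 3.09 times. Of these receptors 6 had a log2 fold change above 0 and 6 below, within -0.51 and 0.53, and 0 had an unadjusted p under 0.05. Fzd1 and Fzd9 were the most abundant per kilobase, at 168 and 151 normalized counts, and together made up 36.1% to 60.7% of the summed receptor level. The balance between them was not fixed, as 3xCR replicate 4 had the most Fzd1 and the least Fzd9.

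Fzd1 (chromosome 5, 4753839 to 4758035 of GRCm38) had 607, 810 and 1133 normalized counts in 3xCR and 365, 763, 625 and 633 in GPC6. At -0.51, its log2 fold change was the lowest of the receptors (SE 0.32, limma adjusted p = 0.730). The lowest value was that of GPC6 replicate 1, without which the log2 fold change was -0.29. Fzd9 had 414, 467 and 136.7 normalized counts in 3xCR and 162, 335, 484 and 432 in GPC6, so that the low values of 3xCR replicate 4 and GPC6 replicate 1 stood apart in both groups.

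Fzd3, a receptor of the planar polarity branch that guides axons, had the highest log2 fold change of the receptors, 0.53 (SE 0.39, limma adjusted p = 0.734). Its normalized counts were 640, 565 and 251 in 3xCR and 861, 825, 444 and 572 in GPC6, with an overlap between 444 and 640. Fzd2 was highest in GPC6 replicate 4 at 324, against 83.4 to 168 in the other 6 libraries. The co-receptors were even between tumors. Lrp5 had 390, 519 and 435 normalized counts in 3xCR and 323, 485, 441 and 457 in GPC6, and Lrp6 had 698, 676 and 488 in 3xCR and 495, 801, 426 and 527 in GPC6. Lrp5 was 7.07% to 7.95% of the summed receptor level per kilobase in every library, the narrowest range of the class. Fzd4, the receptor that serves Wnt7 and Norrin signals in endothelium, averaged 7.95 normalized counts per kilobase, and Fzd5, the least abundant receptor, 6.22.

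Secreted inhibitors varied most, with a median SD within groups of 1.30 on the log2 scale, against 0.56 for the receptors. Dkk3 and Sfrp1 together made up 65.0% to 89.9% of the summed level per kilobase. Dkk3 (chromosome 7, 112116017 to 112159057 of GRCm38) is a divergent Dickkopf protein that neurons and astrocytes express, and unlike Dkk1 it is not an established inhibitor of Lrp5 and Lrp6. It was the most abundant member of all per kilobase (433 normalized counts). Its normalized counts were 1723, 935 and 1782 in 3xCR and 2992, 847, 1476 and 436 in GPC6, so that the GPC6 group held both the highest and the lowest library. The log2 fold change was -0.33 (SE 0.61, limma adjusted p = 0.882).

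Sfrp1, a Wnt-binding protein of progenitors and astrocytes, had 274, 738 and 286 normalized counts in 3xCR and 402, 223, 525 and 1384 in GPC6. The highest value, in GPC6 replicate 4, was 1.88 times the next. Sfrp2 and Sfrp4 were highest in the same tumor. Sfrp2 had 400.2 normalized counts there, against 13.8 to 132 in the other 6 libraries, and Sfrp4 had 125.5, against 23.2 to 62.3. Sfrp5 was lowest in that tumor, at 8.23, and highest in GPC6 replicate 1, at 272, with 13.8 to 132 in the 3xCR libraries. GPC6 replicate 4 had the highest sum of the 5 markers of dividing cells, none of them at 0 in a library, at 9871 normalized counts, next to 8676 in 3xCR replicate 3. That lead came from Top2a (5412 against 3615). Mki67 (1488 against 1876), Cdk1 (1214 against 1417) and Ccnb1 (1176 against 1189) were higher in 3xCR replicate 3, and Aurkb was about equal (581 against 580). The part of dividing cells in the levels of the Sfrp genes was not tested.

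Wif1, which binds Wnt ligands outside the cell, had the highest log2 fold change of the inhibitors, with 1 tumor far above the rest. It lies on chromosome 10 (121033960 to 121100650 of GRCm38). It had 4.38, 9.30 and 5.52 normalized counts in 3xCR and 9.27, 19.8, 227 and 8.23 in GPC6 replicates 1 to 4, with 256 reads in GPC6 replicate 3 and 4 to 20 in each other library. GPC6 replicate 3 was thus 11.5 times the next library, and the rest overlapped. The log2 fold change was 1.86 (SE 1.13, limma adjusted p = 0.730), and 0.81 without GPC6 replicate 3. Wif1 passed the filter through the GPC6 tumors alone. None of the 15 marker lists had its highest sum in GPC6 replicate 3.

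Dkk2 had the lowest log2 fold change of the inhibitors (-0.44, SE 1.07, limma adjusted p = 0.911), which turned to 0.78 without 3xCR replicate 4. That library had 88.4 normalized counts, against 4.93 and 7.44 in the other 3xCR tumors and 4.64 to 31.6 in GPC6. Frzb, a Wnt-binding relative of the Sfrp proteins, had 165 and 168 normalized counts in GPC6 replicates 1 and 2 and 33.1 to 59.2 in the other 5 libraries. Notum, an enzyme that removes the lipid from Wnt ligands, had 2.79 to 29.4 normalized counts. Dkk1, the classical antagonist of Lrp5 and Lrp6, had at most 1 read in any library.

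R-spondins amplify Wnt signals by binding Lgr4, Lgr5 or Lgr6 and keeping Frizzled receptors at the surface. Rspo1 was the most abundant of the axis per kilobase, at 31.7 normalized counts, with 40.0, 117 and 23.5 normalized counts in 3xCR and 116, 14.8, 61.2 and 57.6 in GPC6. Both groups spanned about the same range (log2 fold change 0.052, SE 0.79, limma adjusted p = 0.988). Rspo2 had 14.8, 5.58 and 5.52 normalized counts in 3xCR and 29.4, 0.99, 137 and 15.4 in GPC6 replicates 1 to 4. At 1.13, its log2 fold change was the highest of the class (SE 1.318, limma adjusted p = 0.812), and GPC6 replicate 2, with 1 read, was the lowest of the 7 libraries. The log2 fold change was 0.18 without GPC6 replicate 3, the highest library, and 2.22 without GPC6 replicate 2. Rspo2 passed the filter through the GPC6 tumors alone.

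Rspo3 had 32.9, 23.3 and 33.1 normalized counts in 3xCR, and 77.3, 52.3 and 62.8 in GPC6 replicates 1, 3 and 4, but 1.98 in GPC6 replicate 2. GPC6 replicate 2 was the lowest library for both genes, and the others of the group lay above 3xCR. Rspo4 had at most 4 reads in a library. Of the receptors, Lgr4 had the lowest log2 fold change of the class (-0.21, SE 0.56, limma adjusted p = 0.921), with 127, 104 and 91.2 normalized counts in 3xCR and 241, 68.2, 103 and 42.2 in GPC6. Its sign turned, to 0.16 without GPC6 replicate 4, 0.063 by edgeR and 0.086 by DESeq2. Lgr5, a target of beta-catenin and a stem cell marker of the gut, had 12.4 to 41.9 normalized counts in 3xCR and 33.7 to 51.4 in GPC6.

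**Figure D4:**
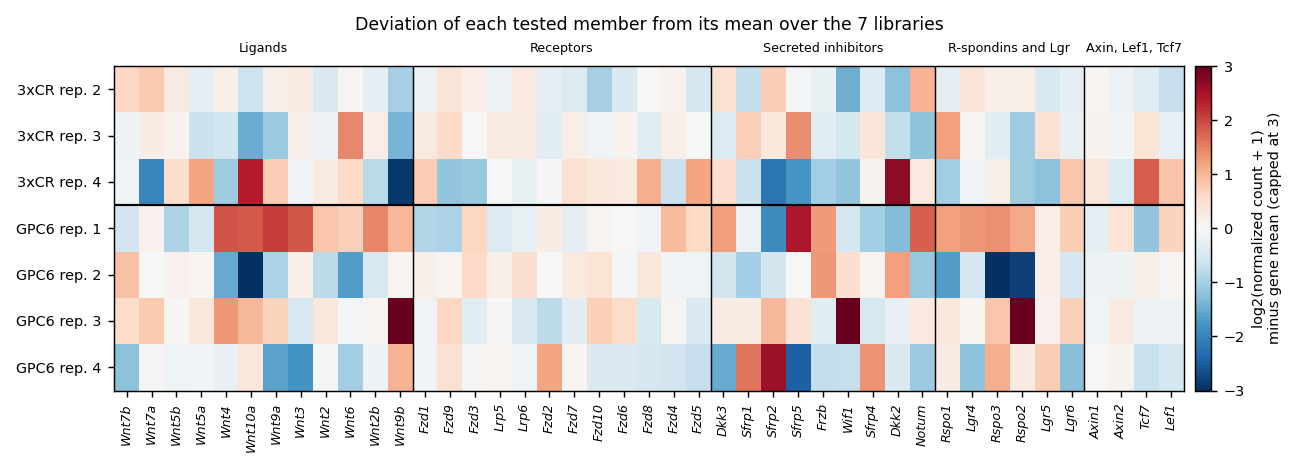
Deviation of log2(normalized count + 1) from the mean of each gene over the 7 libraries, for the 43 tested members in columns and the libraries in rows, red above and blue below the mean and capped at 3. Strong colors fall in single libraries, such as Wif1, Rspo2 and Wnt9b in GPC6 replicate 3 and Dkk2, Wnt10a and Tcf7 in 3xCR replicate 4, and receptors and Axin genes stay pale.

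Axin1 and Axin2 are paralogous scaffolds of the destruction complex, and they had log2 fold changes of opposite sign. Axin1 (chromosome 17, 26138688 to 26195811 of GRCm38), which most cells express, had 672, 703 and 829 normalized counts in 3xCR and 543, 586, 595 and 658 in GPC6 replicates 1 to 4. The highest GPC6 tumor (658) was below the lowest 3xCR tumor (672), in a gene whose highest library was only 1.53 times the lowest. The means were 735 ± 83.0 (SD, n = 3) and 596 ± 47.8 (SD, n = 4), and the log2 fold change was -0.30 (SE 0.18, limma unadjusted p = 0.142, adjusted p = 0.730). When single libraries were left out, the log2 fold change stayed within -0.36 and -0.21.

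Axin2 (chromosome 11, 108920349 to 108950783 of GRCm38) is induced by beta-catenin and widely read as a sign of canonical activity. It had 191, 204 and 162 normalized counts in 3xCR and 286, 193, 259 and 229 in GPC6, so that GPC6 replicate 2 alone fell into the 3xCR range. The means were 185 ± 21.6 (SD, n = 3) and 242 ± 40.1 (SD, n = 4), and the log2 fold change was 0.37 (SE 0.24, limma unadjusted p = 0.160, adjusted p = 0.730). Over all libraries Axin1 averaged 171 and Axin2 39.5 normalized counts per kilobase.

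Lef1 and Tcf7 are transcription factors that carry beta-catenin to its targets and are also expressed in T cells and their precursors. Lef1 (chromosome 3) had 17.5, 24.2 and 52.5 normalized counts in 3xCR and 46.4, 30.6, 25.7 and 19.5 in GPC6, with overlapping ranges and a difference of 0.043 on the log2 scale (SE 0.53, limma adjusted p = 0.985), whose sign turned under equal upper quartile scaling. Tcf7 (chromosome 11) had 64.1, 111 and 294 normalized counts in 3xCR and 35.5, 92.9, 72.7 and 51.4 in GPC6. At -1.10, its log2 fold change was the lowest of the class (SE 0.57, limma unadjusted p = 0.0922, adjusted p = 0.730), and it was -0.50 without 3xCR replicate 4. The 5 T cell markers, none of them at 0 in a library, summed to 368, 302 and 1425 normalized counts in the 3xCR libraries and to 119, 212, 301 and 250 in GPC6. The highest library was the same for both, and the part of T cells in the Tcf7 level was not tested.

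**Figure D5:**
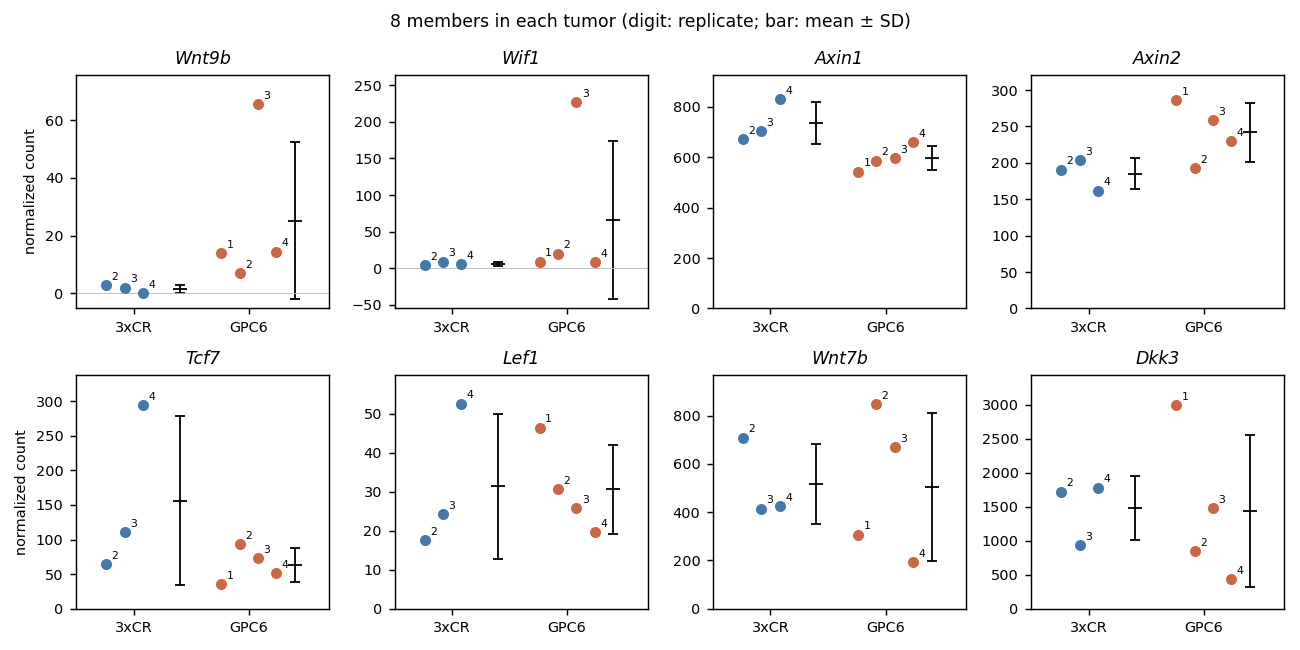
Normalized counts of 8 members in each tumor (y axis, linear), with the replicate number beside each point and the mean ± SD of the group to the right (3 tumors of 3xCR in blue, 4 of GPC6 in orange). The groups are apart in Wnt9b and Axin1, Wif1 is high in GPC6 replicate 3 alone (227), and Tcf7 is highest in 3xCR replicate 4 (294).

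The promoters of Wnt9b and Axin2 are shown as the genes with the smallest p and with the textbook response to beta-catenin. Each run is the 250 bases before the RefSeq start in GRCm38.p6, read 5′ to 3′ on the strand of the gene, at chr11:103749822-103750071 (minus strand) and chr11:108920099-108920348 (plus strand). A promoter of Wnt5b, at chr6:119449387-119449636 (minus strand), is added as the only one of a tested member in which a Tcf/Lef motif was found, with the match in capitals. The other Wnt5b promoters, at chr6:119544348-119544597 and chr6:119467212-119467461, held no match.
Wnt9b: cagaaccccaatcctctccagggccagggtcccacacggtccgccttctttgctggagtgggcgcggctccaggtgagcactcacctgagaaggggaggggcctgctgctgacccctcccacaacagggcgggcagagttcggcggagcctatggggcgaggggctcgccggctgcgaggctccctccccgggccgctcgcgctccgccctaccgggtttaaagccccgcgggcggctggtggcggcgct
Axin2: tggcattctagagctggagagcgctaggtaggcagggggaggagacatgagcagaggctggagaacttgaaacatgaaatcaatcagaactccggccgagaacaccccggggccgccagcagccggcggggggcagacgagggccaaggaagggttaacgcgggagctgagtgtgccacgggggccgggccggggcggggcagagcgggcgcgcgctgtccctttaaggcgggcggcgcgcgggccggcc
Wnt5b: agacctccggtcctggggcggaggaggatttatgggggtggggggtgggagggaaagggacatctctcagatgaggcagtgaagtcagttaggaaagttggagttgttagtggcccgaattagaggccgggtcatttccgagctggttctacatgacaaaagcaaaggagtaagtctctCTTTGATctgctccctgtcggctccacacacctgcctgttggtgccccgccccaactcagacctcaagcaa

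The motif was searched as CTTTGAT or CTTTGAA on both strands. RefSeq promoters matched 33 of the 50 members, with 40 starts, of which 3 (7.50%) held the motif, against 7.48% of all 32851 promoters of the same length. The other 2 were starts of Wnt11 and Dkk1. A match is a run of letters in this window, and no match says nothing of sites elsewhere.

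The wider pathway was compared in the same way. Of 57 other genes from the lists, 55 were tested, 0 passed adjustment in limma and 2 (3.64%) had an unadjusted p under 0.05, against 4.66% of all genes tested. The groups were apart in 0 of them, against 6.32%. By edgeR and by DESeq2, 0 and 0 passed adjustment, and 3 and 8 of the 55 had an unadjusted p under 0.05, against 6.70% and 12.1% of all genes tested. Celsr2, Cthrc1 and Draxin were called by both before adjustment. Draxin had 65.8, 86.5 and 56.6 normalized counts in 3xCR and 38.6, 64.2, 846 and 899 in GPC6. Cthrc1 had 134, 102 and 733 in 3xCR and 54.1, 176, 61.2 and 48.4 in GPC6. Over the 55 genes the median log2 fold change was 0.078, with 31 above 0 and 24 below. Apc, the second scaffold of the destruction complex, had 1335, 1044 and 671 normalized counts in 3xCR and 2303, 1708, 1477 and 1272 in GPC6, with overlap through GPC6 replicate 4 (log2 fold change 0.75, SE 0.305, limma unadjusted p = 0.0393, adjusted p = 0.730). Celsr2, an adhesion receptor of planar polarity that neurons express, had 508, 451 and 164 in 3xCR and 2079, 413, 1147 and 755 in GPC6 (log2 fold change 1.47, SE 0.60, limma unadjusted p = 0.0409, adjusted p = 0.730). Without GPC6 replicate 1 the log2 fold changes of Apc and Celsr2 were 0.59 and 1.08, with unadjusted p-values of 0.0759 and 0.0795 in limma.

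The most abundant genes of the other classes were close between the groups or overlapped. Ctnnb1, which encodes beta-catenin, had 9803, 7589 and 6051 normalized counts in 3xCR and 6246, 11365, 7656 and 7883 in GPC6 (log2 fold change 0.078, SE 0.30, limma adjusted p = 0.947), with the highest and the second lowest library both in GPC6. Wls, the carrier that takes Wnt ligands to the surface, had a log2 fold change of -0.56 (SE 0.39, limma adjusted p = 0.731). For the receptor Ryk it was -0.41 (SE 0.24, limma adjusted p = 0.730). For Ctnnbip1, an inhibitor of beta-catenin, it was -0.58 (SE 0.38, limma adjusted p = 0.730). With a library left out, that of Ctnnbip1 ran from -0.84 to -0.17, the latter without 3xCR replicate 2. Of 16 genes often induced by beta-catenin, members included, 14 were tested, with 7 above 0, 7 below and a median log2 fold change of -0.019, equal to that of all genes tested. Ccnd1, the cyclin of the first cell cycle phase and the most abundant of them, had 8117, 9924 and 11424 normalized counts in 3xCR and 1298, 11769, 5546 and 5256 in GPC6 (log2 fold change -1.08, SE 0.66, limma adjusted p = 0.730). Its lowest value was in GPC6 replicate 1, the library with the fewest counts of markers of dividing cells, whose part was not tested, and without it the log2 fold change was -0.47.

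By library, the highest value of a member lay in 3xCR replicate 4 or GPC6 replicate 1 for 25 of the 43 (58.1%), where 55.2% of all genes tested had it there. GPC6 replicate 3 held the highest value of 6 members (13.95%), namely Fzd6, Fzd9, Fzd10, Rspo2, Wif1 and Wnt9b, and of 4.19% of all genes tested. Of these members, Rspo2, Wif1 and Wnt9b passed the filter through the GPC6 tumors alone, so this share is tied in part to the filter. By class, GPC6 replicate 1 was highest in 5 of 12 ligands, and GPC6 replicates 1 and 4 in 3 of 9 inhibitors each. Among 12 receptors, 3xCR replicate 4 was highest in 4 and GPC6 replicate 3 in 3. The scaffold and nuclear genes were highest in 3xCR replicate 4 in 3 of 4. Over all genes tested, the shares were 31.3% in GPC6 replicate 1, 18.4% in GPC6 replicate 4 and 23.9% in 3xCR replicate 4.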

How the data were processed

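Endpoint tumors were sequenced as bulk tissue, 3 of 3xCR and 4 of GPC6, and each sample title gave the group and the replicate number. The authors aligned reads to mm10 with STAR 2.5.0a, counted them on genes and normalized them with DESeq2 1.20.0, and the deposited values are this normalized signal, read counts over the size factor of the library. How reads shared by several genes were counted is not given in the sources used here. Of 19282 entries, 25 with names turned into dates were left out (0.254% to 0.361% of reads). All values (100%) were within 0.01 of a whole number of reads, which gave back the reads. Groups were compared with limma 3.58.1 (R 4.3.3), with a variance trend, on log2(normalized count + 1) of genes with a mean of at least 10. It was set as the main test in place of DESeq2, the tool of the authors, because the deposited values are normalized. The recovered reads also allowed DESeq2, which called 1793 genes before and 9 after adjustment, against 689 and 0 in limma. edgeR 4.0.16 and DESeq2 1.42.0 were run on the recovered reads as alternatives, beside pseudocounts of 0.5 and 5, no filter and a mean of 50, equal total or upper quartile, library weights, a replicate block and leaving out each library. The limma fit was checked on simulated data with a low spread between replicates. Its recovery at the spread of these tumors was not part of that check. The authors describe each column of their heatmap of these tumors as a single brain, but the labels give no animal or litter for a library. The p-values measure the spread between these samples. Named were members without overlap or at an unadjusted p under 0.05, those of highest level per kilobase and of highest and lowest log2 fold change in each role, Axin2, Lef1, Tcf7 and Wif1, and likewise for the wider pathway. Other members are named with values only, after these were seen, as are Cthrc1 and Draxin of the wider pathway. Exon lengths and coordinates are from GENCODE M21 (GRCm38, the same assembly as mm10), in which all 50 members were found. Not every targeted gene is reported here. The members and lists were chosen with earlier results of these data known.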

Additional observations from a re-analysis of the deposited data

Results flagged for a closer look

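In 3 of 51 genes examined, 1 GPC6 tumor stood far from the other 3 by Dixon's criterion at 95%, and chance gives about 2.55 such genes. Rspo3 had 1.98 normalized counts in GPC6 replicate 2, with 52.3 to 77.3 in GPC6 replicates 1, 3 and 4 and 23.3 to 33.1 in 3xCR. Wnt7a had 336 in GPC6 replicate 3, with 197 to 213 in GPC6 replicates 1, 2 and 4 and 49.7 to 338 in 3xCR. Lgr5 had 51.4 in GPC6 replicate 4, against 33.7 to 35.6, and 12.4 to 41.9 in 3xCR. The 3 libraries of 3xCR were too few to be examined in this way.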

How the results depend on the processing

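The absence of members at an adjusted p under 0.05 held in 16 of 17 alternatives. The exception was library weights, with 3 (Rspo2, Wif1 and Wnt9b) and with 1962 of all genes, while DESeq2 called 9 genes. DESeq2 gave no adjusted p to some members, Wnt9b and Tcf7 among them, so the absence there does not cover these. Genes at an unadjusted p under 0.05 numbered 5105 (34.5%) with library weights, 991 by edgeR, 1793 by DESeq2, and 121 (without 3xCR replicate 4) to 1399 (without GPC6 replicate 2) with each library left out. Members at an unadjusted p under 0.05 were 13 with library weights, 2 by edgeR and by DESeq2, 0 at a mean of at least 50 and 1 to 3 with each library left out. With the replicate block they were 3 (Wif1, Wnt6 and Wnt9b), but no label ties the numbers to a shared animal or batch. Same-numbered libraries correlated at -0.19, 0.12 and 0.30 in their deviations, and differently numbered ones at -0.46 to 0.50. So few correlations can neither show nor exclude a shared batch, and the main comparison used no pairing. Over all genes the block gave 688 before and 0 after adjustment, and higher calls were 58.8% in the main comparison, 47.1% with the block, 45.7% at an equal upper quartile, 69.8% by DESeq2 and 38.3% to 66.2% with each library left out. Members without overlap were 1 at a mean of at least 50 and 2 to 6 with each library left out. The median log2 fold change of the members tested ran from -0.062 to 0.27 with each library left out.

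Of 385 values of 23 named genes under alternatives, 27 in 8 genes changed sign. With library weights these were Dkk2 (0.40), Dkk3 (0.39), Fzd3 (-0.15), Rspo1 (-0.81) and Wnt7b (0.46). Lef1 was -0.0079 at an equal upper quartile, -0.037 by edgeR, -0.011 by DESeq2 and -0.17 with the replicate block. Lgr4 was 0.063 by edgeR and 0.086 by DESeq2, and Rspo1 was -0.35 with the block. With a library left out, ranges that crossed 0 were -0.092 to 0.26 for Ctnnb1, -1.17 to 0.78 for Dkk2, -0.80 to 0.13 for Dkk3, -0.29 to 0.48 for Lef1, -0.67 to 0.16 for Lgr4, -0.45 to 0.69 for Rspo1 and -0.55 to 0.16 for Wnt7b. The cause was not tested. Depth limits what can be said of members under 10 reads.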
